A study of Rattus norvegicus with 6 samples.

Results

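The miR-34 family of the rat, miR-34a, miR-34b and miR-34c, was followed in tendon-derived stem cells (rTDSCs) with and without mechanical loading. Its members were taken by the array's names rno-miR-34a, rno-miR-34b and rno-miR-34c, so that they are 3 of the 677 miRNAs on the array, and the opposite (star) arms of their hairpins were kept apart. rTDSCs are colony-forming cells grown out of the patellar tendon, here of male 8-week-old Sprague Dawley rats, and the colonies were mixed before passaging. Cells of passage 3 per the labels lay on collagen-coated flexible plates and were either stretched for 7 days (10% elongation, 0.5 Hz, 8 h per day; the loading group, n = 3) or kept static for the same time (the non-loading group, n = 3). Neither group carried a transgene, a deletion or a drug. miRNAs in total RNA were labelled with a single dye and read on an Agilent rat microarray for each sample, all 6 of them on the same slide. Nothing in the labels places the replicates in separate cultures or animals, so the p-values measure only the spread between these samples, which may be technical.

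miR-34 is known as a family that p53 switches on directly. After DNA damage or other stress, p53 binds upstream of its genes, and the mature miRNAs then lower the messages of cell cycle and survival factors such as cyclin-dependent kinases, MET, BCL2 and SIRT1, so that the family is linked to growth arrest, apoptosis and senescence. miR-34a has a gene of its own, whereas miR-34b and miR-34c are cut from a shared primary transcript. In mesenchymal stem cells miR-34 members are described as brakes on osteoblast differentiation.

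The mature sequences show how the members are related, and they were available in RefSeq (GRCr8) for 3 of 3. The array's names carry no arm and were paired with the 5p arm, and capitals mark the seed, bases 2 to 8 from the 5′ end, with which a miRNA finds its targets.
miR-34a: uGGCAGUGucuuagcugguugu
miR-34b: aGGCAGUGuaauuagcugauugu
miR-34c: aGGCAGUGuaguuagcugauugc
All 3 members share the seed GGCAGUG. miR-34b and miR-34c are identical at 21 of 23 positions, with the substitutions A11G and U23C (the base of miR-34b first, positions counted from the 5′ end). miR-34a shares bases 2 to 9 with both and departs from them after that. This seed was held by 5 of the 693 mature rat miRNAs there, and the other two belong to the miR-449 family of multiciliated epithelia.
miR-449a: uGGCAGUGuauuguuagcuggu
miR-449c-5p: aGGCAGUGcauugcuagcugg
In GRCr8 the hairpin of miR-34a lies at chr5:165815952-165816053 on the plus strand. Those of miR-34b (chr8:60306609-60306692) and miR-34c (chr8:60306091-60306167) lie on the minus strand with 441 bases between them. The array itself was annotated on an older build, and its probe sequences were not used here, so whether a probe for miR-34b also binds miR-34c was not tested.

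All 3 members were detected on 6 of 6 arrays, and none of their spots was saturated. Signals below are given as a percent of the array's 75th percentile, taken over the 173 probes detected on every array. Because each probe has its own binding strength, no level of one miRNA was set against that of another. One array stood apart. On loading replicate 2 the spots of a probe scattered with a median coefficient of variation of 15.4%, against 6.70% to 9.36% on the other arrays, and for 6 of 6 member probes the scatter was highest there. The cells carried the miRNAs of mesenchymal stroma, with miR-21, miR-143, miR-199a-3p, miR-199a-5p and miR-214 (5 of 6 listed) detected on every array. Summed over the 6 listed, miR-145 included, the signal was 10955%, 11756% and 10789% on the non-loading arrays and 11641%, 11946% and 12031% on the loading arrays, a sum over probes of different strength. The listed miRNAs of epithelium (7 on the array), skeletal muscle (4) and neurons (3) were detected on none. Of the endothelial markers miR-126 was detected (2.77% to 5.36%, log2 change 0.25, adjusted p = 0.724 in limma) and miR-126* was not, and of 5 blood markers on the array only miR-223 was detected (log2 change 0.40, adjusted p = 0.709). Without non-loading replicate 3 the change of miR-126 was negative. miR-223, lowest on that array, was at 6.58%, 8.07% and 4.48% without and 8.75%, 7.28% and 8.65% with loading. The part of these markers in the values of the miR-34 family was not tested. In RNA of whole cultures, fewer cells holding a miRNA and less of it per cell cannot be told apart.

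miR-34a, the member best known as a p53 target, was somewhat lower under loading on average, but the groups overlapped. Its signal was 651%, 572% and 517% on non-loading replicates 1, 2 and 3, and 483%, 565% and 545% on loading replicates 1, 2 and 3. The lowest value was loading replicate 1 and the highest non-loading replicate 1, while loading replicates 2 and 3 lay within the non-loading range. The group means were 580% ± 67.6 and 531% ± 42.9 (SD, n = 3). On the log2 scale the change was -0.12 (standard error 0.12, 95% interval -0.41 to 0.16), a ratio of 0.918 with an interval of 0.753 to 1.12. limma gave an adjusted p of 0.724 and the exact permutation test a two-sided p of 0.4. The change was -0.037 without non-loading replicate 1, -0.057 without loading replicate 1 and -0.20 without non-loading replicate 3, and it was 0.071 with the normexp background correction. It was -0.28 when arrays were scaled on all probes, -0.23 after quantile normalization and -0.23 with the software's total gene signal. The adjusted p in limma was then 0.996, 0.459 and 0.677.

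miR-34b, from the shared transcript, was measured at 54.3%, 49.7% and 46.2% without loading and at 45.6%, 59.7% and 54.1% with loading. Both the lowest and the highest array were loading arrays, replicates 1 and 2. The means were 50.1% ± 4.06 and 53.1% ± 7.11 (SD, n = 3). The log2 change was 0.08 (standard error 0.13, 95% interval -0.23 to 0.39), a ratio of 1.06, with an adjusted p of 0.824 in limma. Its sign hung on loading replicate 2, since without that array the log2 change was -0.0091, and it also turned negative with 3 other scalings of the arrays (-0.075 to -0.012), with the row on the slide as a block (-0.13) and with normexp (-0.28).

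miR-34c, its neighbour, was measured at 52.3%, 51.5% and 46.9% without loading and at 50.1%, 57.7% and 56.8% with loading. Loading replicates 2 and 3 were above every non-loading array, and loading replicate 1 lay among them. The means were 50.2% ± 2.88 and 54.9% ± 4.18 (SD, n = 3). The log2 change was 0.13 (standard error 0.09, 95% interval -0.10 to 0.35), a ratio of 1.09 with an interval of 0.932 to 1.28, and the log2 change was -0.029 when arrays were scaled on all probes, -0.25 with normexp and -0.0034 with the row on the slide as a block. With 1 array left out it lay between 0.078 (non-loading replicate 3) and 0.19 (loading replicate 1). limma gave an adjusted p of 0.724 and the exact permutation test a two-sided p of 0.3.

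**Figure D1:**
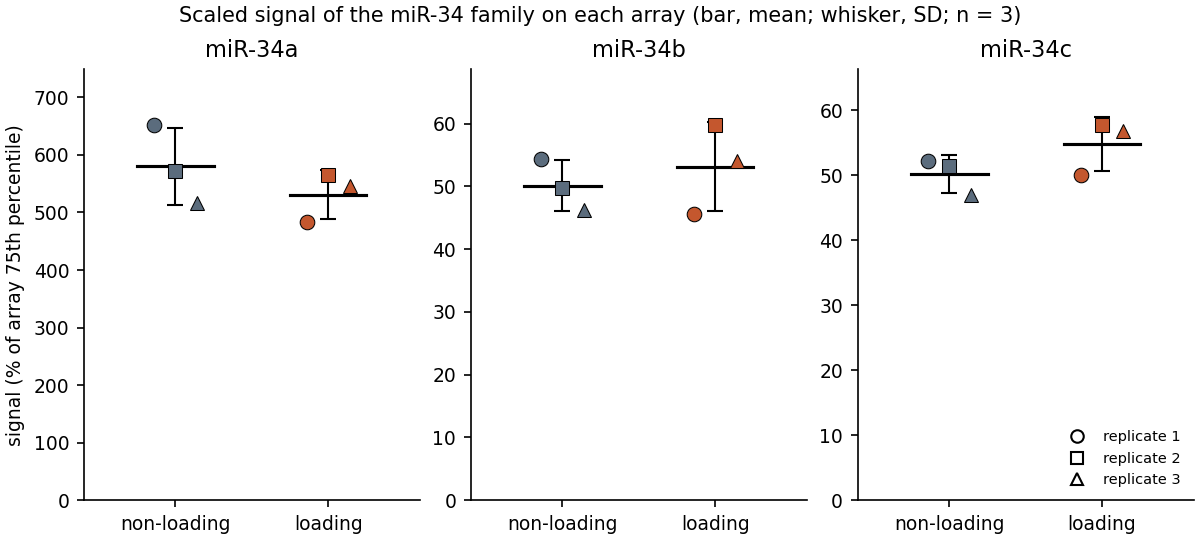
Signal of miR-34a, miR-34b and miR-34c on each array (y axis, percent of the array's 75th percentile, linear), with the mean and SD of the 3 non-loading and the 3 loading arrays. The groups overlap for each miRNA, and the log2 changes are -0.12, 0.08 and 0.13. Those of miR-34b and miR-34c turn negative under another scaling.

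None of the 3 members passed a threshold, in a comparison in which few miRNAs did. Of the 148 miRNAs tested, 0 (0%) had an adjusted p under 0.05 in limma, the lowest adjusted p being 0.0551. That count was 2 under 9 of the 22 alternatives, the methods' test among them, and the 2 were miR-132 and miR-221, not members. At an unadjusted p under 0.05 there were 14 (9.46%), 13 higher (8.78%) and 1 lower (0.676%), a split that was 8 to 9 after quantile normalization. The 14 became 1 when arrays were scaled on all probes, 7 without loading replicate 1 and 6 without loading replicate 3. Groups did not overlap, with loading higher, for 19 miRNAs (12.8%), and with loading lower for 4 (2.7%), and no member was among these. By p-value miR-34c ranked at place 43, miR-34a at 62 and miR-34b at 99 of the 148. The median log2 change of all tested miRNAs was 0.06, and relative to it the members stood at -0.19 (miR-34a), 0.02 (miR-34b) and 0.06 (miR-34c). Scaling on all probes moved that median to -0.09, and the members relative to it were then -0.19, 0.02 and 0.06 as well. The size of the members' changes was close to the median absolute change of all, 0.11.

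The groups did not overlap in the balance between both loci. The quantity taken was log2 miR-34a minus the mean log2 of miR-34b and miR-34c on the same array, from which the scale of the array drops out; its size also carries the strength of the probes, so only its change between groups is read. It was 3.61, 3.50 and 3.47 on the non-loading arrays and 3.34, 3.27 and 3.30 on the loading arrays. Every loading array was below every non-loading array. The means were 3.53 ± 0.07 and 3.30 ± 0.04 (SD, n = 3), so that the log2 change of miR-34a relative to the 34b/c locus was -0.23 (standard error 0.047), a ratio of 0.855. The exact two-sided permutation p was 0.1, the smallest that 3 against 3 arrays allow, and 0.133 after Benjamini-Hochberg adjustment over the 4 differences computed, which this test cannot take below 0.05. Such a separation was not rare. Of the 10878 pairs of tested miRNAs, 1774 (16.3%) had a difference of log2 signals whose groups did not overlap, in either direction. miR-34a itself was lower under loading without overlap relative to 39 of the 147 other tested miRNAs, and higher without overlap relative to 2, so the separation was not particular to the 34b/c locus.

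The same held against each partner. log2 miR-34a minus miR-34b was 3.58, 3.52 and 3.48 without loading and 3.40, 3.24 and 3.33 with loading, a change of -0.20 (standard error 0.055). log2 miR-34a minus miR-34c was 3.64, 3.47 and 3.46 without and 3.27, 3.29 and 3.26 with loading, a change of -0.25 (standard error 0.058). Groups were apart in both differences, with exact permutation p = 0.1 for each. Inside the shared transcript there was no such separation. log2 miR-34b minus miR-34c was 0.055, -0.050 and -0.023 without and -0.14, 0.050 and -0.071 with loading, a change of -0.046 (standard error 0.063, exact permutation p = 0.4), and the groups overlapped.

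**Figure D2:**
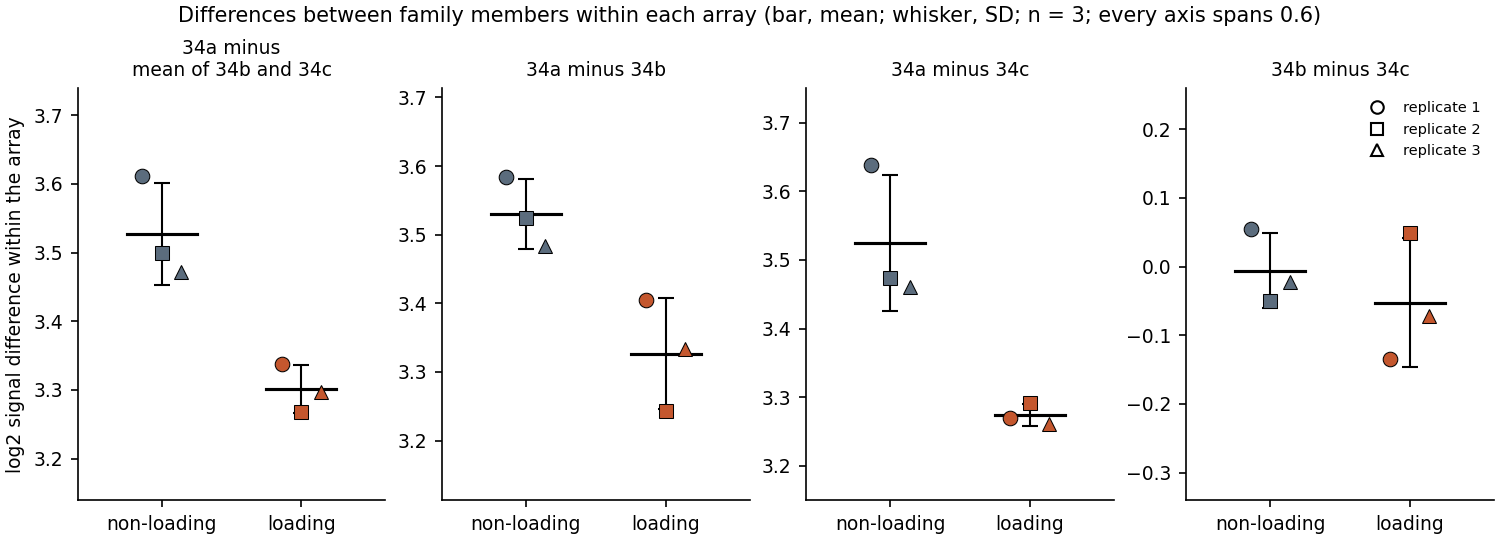
Difference of log2 signals between miR-34 members within each array (y axis, log2), with the mean and SD of the 3 non-loading and the 3 loading arrays. Both differences that set miR-34a against a member of the 34b/c locus are lower on all 3 loading arrays (by 0.20 and 0.25), while miR-34b minus miR-34c overlaps; with the normexp background correction the difference of the loci turns to 0.34 and overlaps.

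With each array left out in turn the change of the difference lay between -0.25 and -0.18, and groups that are apart stay so by construction. Of 15 alternative settings, 8 left the value as it was. They were 4 scalings, which cancel within an array, no floor and a higher floor, neither of which touched a member value, the deposited matrix, which holds the same intensities, and the replicate block, which is balanced. Of the 7 that changed it, 6 gave -0.25 to -0.18 and 1, the normexp background correction, reversed it to 0.34 with overlapping groups (exact permutation p = 0.7). In that setting the median log2 signal of an array lay between -1.05 and 0.87, and single spots had local backgrounds as high as 109535 where the median was 17 to 19. With such backgrounds replaced before normexp, the array medians lay between -1.12 and -0.887, and the change of the difference was -0.18 with the groups apart. Loading replicate 2, the array with the widest spot scatter, had the lowest difference (3.27), and without it the change was -0.21.

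Each member was read by a pair of probes with 10 spots each per array. For miR-34a the brighter probe carried 82.1% of the signal and went from 478% ± 66.9 to 435% ± 46.3 with overlapping groups (exact permutation p = 0.5). Its dimmer probe was steadier, at 102%, 104% and 99.8% without and 99.4%, 92.3% and 95.8% with loading. There the loading arrays were all lower, by 0.09 on the log2 scale (exact permutation p = 0.1). Both miR-34b probes overlapped between the groups, with log2 changes of 0.05 (brighter) and 0.15 (dimmer). For miR-34c the brighter probe overlapped at a log2 change of 0.11. Its dimmer probe was at 6.11%, 6.28% and 4.85% without and 6.49%, 6.86% and 7.05% with loading, all loading arrays higher and a log2 change of 0.25 (exact permutation p = 0.1). That probe was the dimmest of the family, with intensities of 16.8 to 22.9, and the scanner software called 54 of its 60 spots well above background, against 60 of 60 for each of the others. Of the 8 pairs of a miR-34a probe with a miR-34b or miR-34c probe, 8 had a negative change of their difference (-0.38 to -0.14), and in 5 the groups did not overlap. These pairs share probes and arrays and are not independent, and among the 14814 pairs of probes of different miRNAs that were detected on all arrays, 20.9% did not overlap in either direction.

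**Figure D3:**
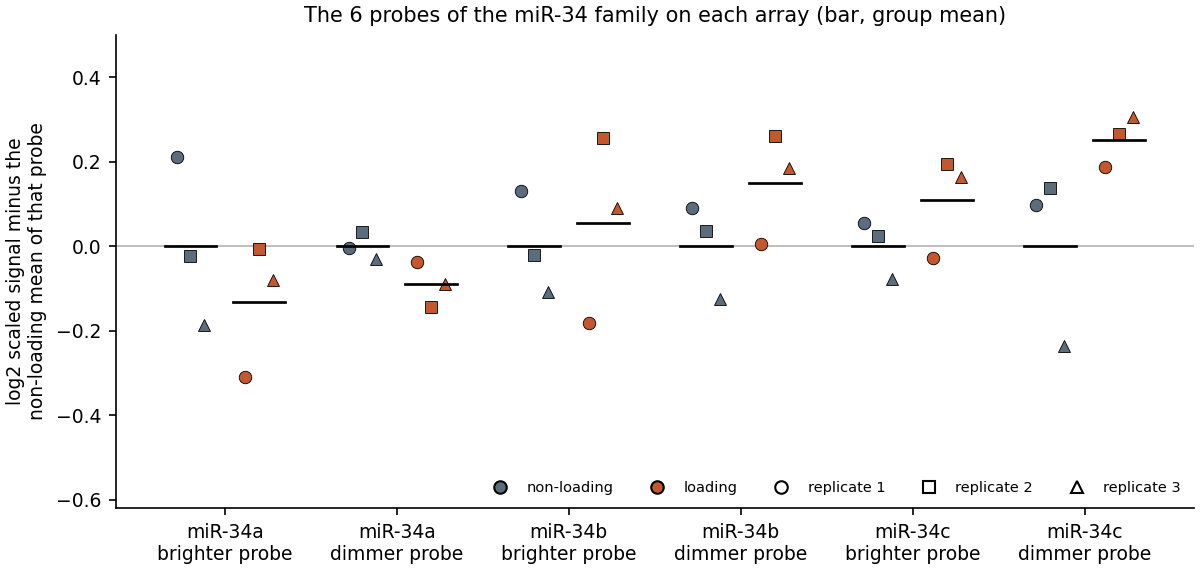
Each of the 6 probes on each array (y axis, log2 scaled signal minus the mean of that probe over the non-loading arrays; bars are group means). The groups are apart for the dimmer miR-34a probe, lower under loading, and the dimmer miR-34c probe, higher under loading, and overlap for the other probes.

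The position on the slide was partly bound to the group. Loading replicate 1 shared the first row with all 3 non-loading arrays, whereas loading replicates 2 and 3 were alone in the second row. Within the first row, loading minus non-loading was -0.26 for miR-34a, -0.13 for miR-34b, -0.0034 for miR-34c and -0.19 for the difference between the loci (log2, 1 loading array against 3). Thus miR-34b and miR-34c were not higher under loading there. For the difference between the loci the sign was fixed beforehand, since all loading arrays were below all non-loading arrays, and only its size is read. Columns 1 and 2 each held 1 array of both groups. The changes there were -0.20 and -0.07 for miR-34a, 0.14 and 0.12 for miR-34b, 0.14 and 0.14 for miR-34c, and -0.34 and -0.20 for the difference. For columns the arrays compared also differ in row, and these cannot be told apart.

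The opposite arms of the same hairpins gave no signal to compare. miR-34a*, miR-34b* and miR-34c* were detected on 0 of 6 arrays, with 2, 2 and 0 of 120 spots each well above background. The seed relatives miR-449a and miR-449c-5p were not detected either, with 0 and 2 of 120 spots, and miR-449b was not matched on the array.

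The members were also read beside other miRNAs of the p53 pathway, in which p53 switches on or helps to process several miRNAs, some miRNAs act back on p53, and the growth-promoting miR-17-92 cluster is repressed by it. In none of these lists did a miRNA have a p under 0.05 in limma, adjusted or not, in either direction, beside 0% (adjusted) and 9.46% (unadjusted) of all tested miRNAs, a share at which lists this short hold few calls or none. Of 12 listed p53-induced or p53-processed miRNAs, 5 were tested, and their log2 changes ran from -0.08 to 0.09 with a median of 0.06, that of all tested miRNAs. Of these changes 3 were positive and 2 negative. The split was 0 to 5 with arrays scaled on all probes or with the software's total gene signal, and 1 to 4 after quantile normalization. miR-16, which restrains the cell cycle, was at 865%, 804% and 816% without and 741%, 800% and 802% with loading, so that its groups were apart with loading lower (-0.08, standard error 0.08). miR-107, which p53 induces, was at 96.9%, 100.1% and 96.2% without and 106%, 103% and 102% with loading, apart in the other direction (0.09, standard error 0.07). Among all tested miRNAs 2.7% were apart with loading lower and 12.8% with loading higher, so with 5 miRNAs these separations are given as values only. The rest were miR-22 (0.06), miR-143 (0.09) and miR-192 (-0.03), all with overlapping groups. miR-145, detected on 1 array without and 2 with loading, was not tested, and miR-194, miR-200c, miR-205 and miR-215 were not detected.

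The 6 tested miRNAs that act on p53 all had positive log2 changes near the median of all, and all 6 were negative when arrays were scaled on all probes. For those that raise p53 the split of positive to negative was 1 to 2 after quantile normalization. It was 2 to 1 with normexp or the software's total gene signal. For those that target p53 it was 1 to 2 with normexp, and 2 to 1 with total gene signal or without non-loading replicate 3. The miR-29 members, which raise p53 by lowering its inhibitors, were at 0.07 (miR-29a), 0.14 (miR-29b) and 0.11 (miR-29c). The groups of miR-29a were apart with loading higher (1144%, 1134% and 1145% against 1147%, 1218% and 1233%), as for 12.8% of all tested miRNAs, and those of miR-29b and miR-29c overlapped. Those that target p53 itself were at 0.09 (miR-25), 0.07 (miR-30d) and 0.11 (miR-125b-5p), and miR-504 was not detected. The tested miRNAs of the miR-17-92 cluster, which p53 represses, had a median of 0.15. Of these changes 4 of 4 were positive, 2 of 4 with arrays scaled on all probes and 0 of 4 with normexp. Among them miR-17-5p was at 0.52 (standard error 0.32, adjusted p = 0.724 in limma), a dim miRNA with 31 of 120 spots above background. It was at 3.31%, 3.55% and 1.99% without and 5.41%, 2.80% and 4.59% with loading. Without non-loading replicate 3, its lowest array, 3 changes of this list were positive and 1 negative. The senescence-associated miR-146a and miR-146b, induced with the inflammatory secretion of senescent cells, were at -0.09 (standard error 0.18) and -0.08 (standard error 0.10), and miR-217 was not detected. On non-loading replicate 2 miR-146a was at 14.9%, against 10.6% and 9.24% on non-loading replicates 1 and 3. Without replicate 2 of that group, 1 of the 2 tested changes was positive and 1 negative. Across all tested miRNAs 99 of 148 changes were positive (38 with the scale on all probes, 27 with normexp), so a list with positive changes only is not set apart by its direction.

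**Figure D4:**
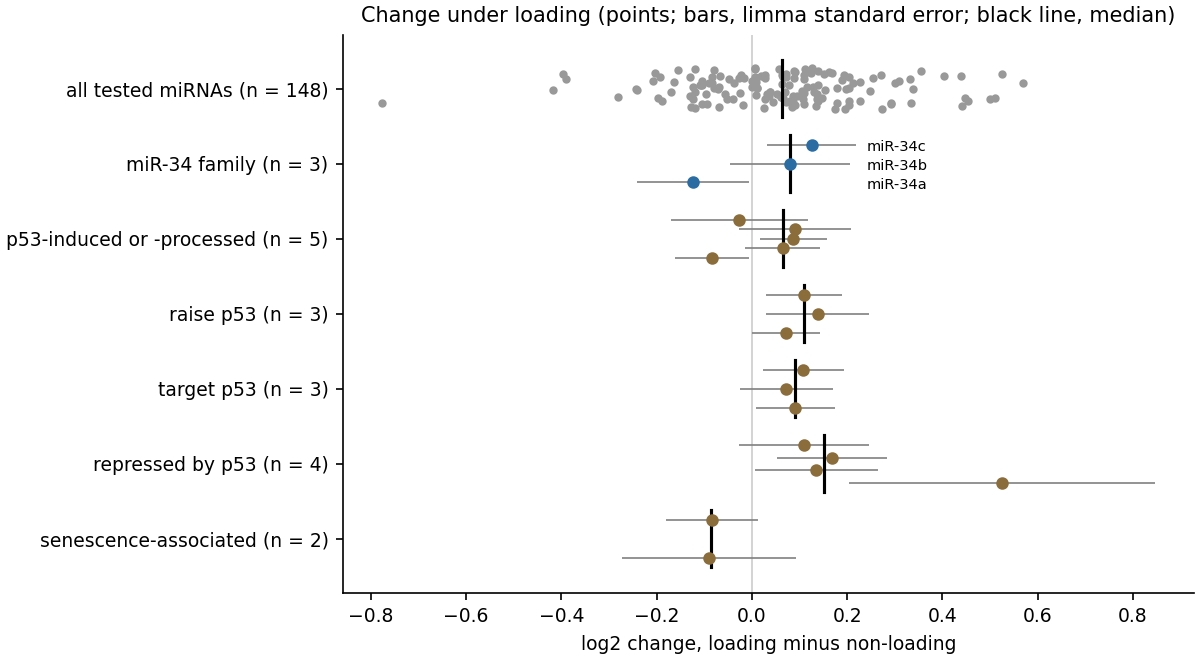
Log2 change under loading (x axis) of all 148 tested miRNAs, of the miR-34 family and of the p53-pathway lists, with the standard error from limma and the median of each list as a black line. miR-34a lies at -0.12 and miR-34b and miR-34c at 0.08 and 0.13, inside the spread of all miRNAs; signs near 0 turn with the scaling.

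Over the 6 arrays the pattern of miR-34a was more like that of other miRNAs than like that of its family. For miR-34a the closest by Pearson r were let-7d (0.978), miR-379 (0.977) and let-7b (0.954) among the 132 other miRNAs detected on all arrays. There miR-34b came at place 30 (r = 0.637) and miR-34c at place 54 (r = 0.344). For miR-34b the closest were miR-100 (0.951), let-7e (0.942) and let-7i (0.922), and miR-34c came at place 10 (r = 0.887). For miR-34c they were miR-10b (0.997), miR-296* (0.966) and miR-181a (0.931), and miR-34b came at place 7. These values describe 6 arrays that share 1 scale factor per array over all miRNAs, and no test was made of them.

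**Figure D5:**
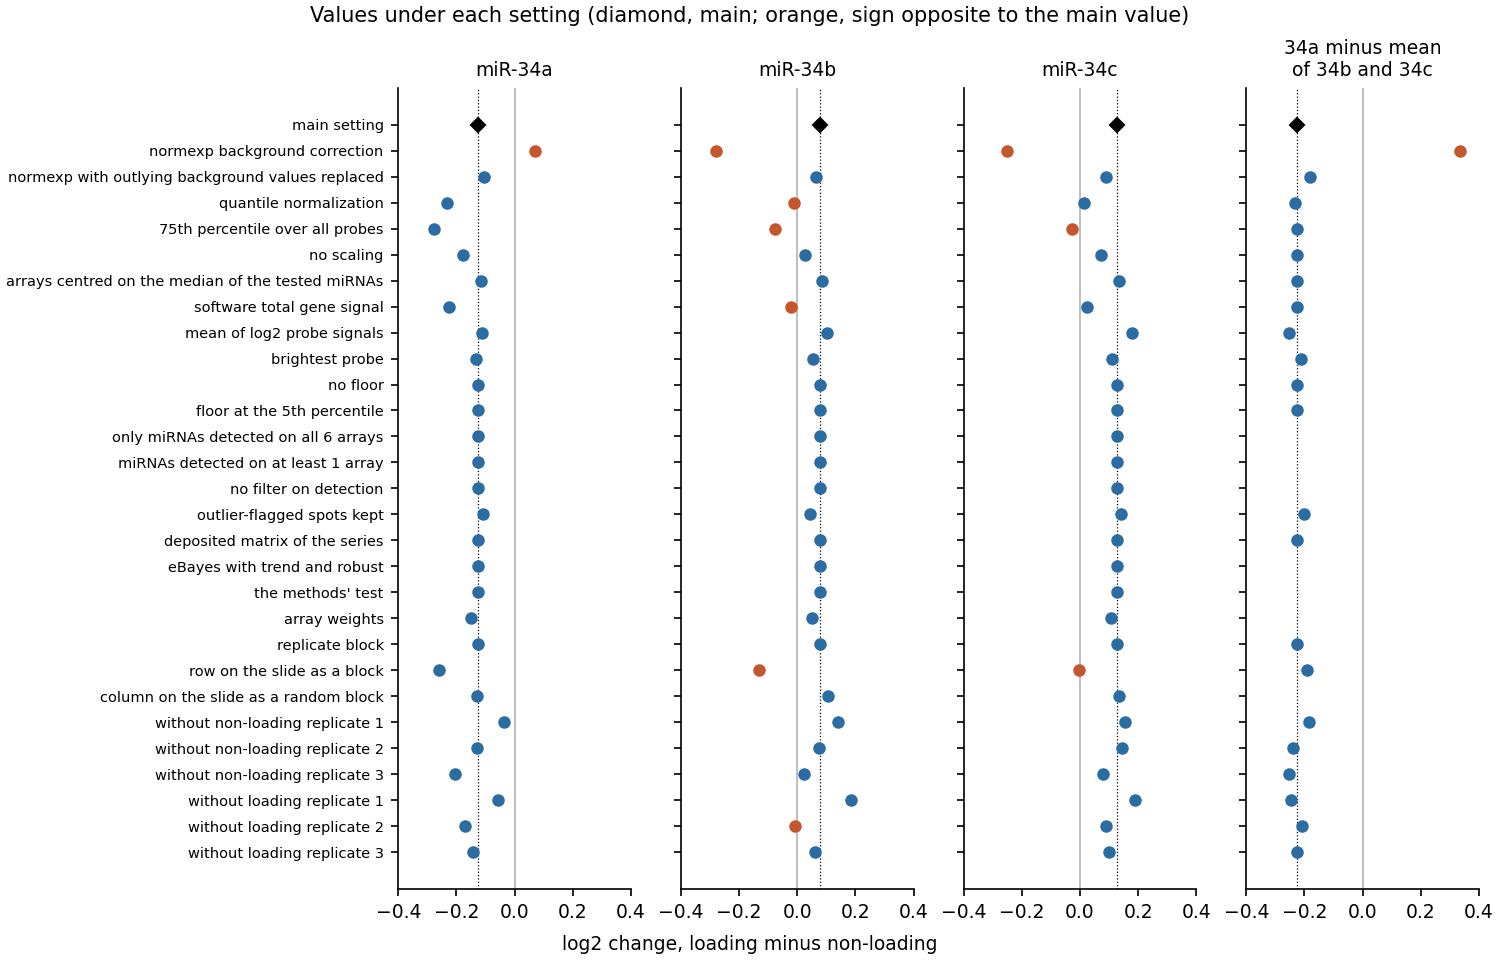
Log2 change under loading (x axis) of the 3 members and of the difference between the loci under each alternative processing, with the reported value as a diamond and values of opposite sign in orange. The change of miR-34a is positive only with normexp (0.071), that of miR-34b is negative under 5 settings and without loading replicate 2, that of miR-34c is negative under 3 settings, and the difference between the loci is positive only with normexp (0.34).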

How the data were processed

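The authors deposited, per the file headers, Agilent Feature Extraction 10.7.3.1 output: for each of 13540 spots a background-subtracted intensity (linear, not scaled between arrays) with flags. The deposited series matrix holds the same intensity (largest difference 0), without centring, with column medians of -0.0688, 0.0199 and -2.03 (non-loading) and 0.0533, -0.422 and 0.440 (loading).

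Control and outlier-flagged spots (2.93% to 4.17%) were left out, spots averaged per probe, arrays divided by their 75th percentile (262.6 to 362.2 intensity units) over the 173 probes with at least 50% of spots above background on all arrays, probes summed per miRNA, a floor of 1.87% set and log2 taken. No member value was at the floor. The 148 of 677 miRNAs that the software detected throughout 1 group or both were tested with limma 3.58.1 (R 4.3.3, lmFit and eBayes, Benjamini-Hochberg), and single values and differences by exact permutation. The number of arrays limits the precision.

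Named are the 3 members, the lists of p53-pathway miRNAs, markers and, per member, the 3 miRNAs with the highest r. Members and lists were chosen with earlier results of these data known. The labels do not say whether equal replicate numbers pair the samples, and no pairing entered the main tests. Alternatives concerned background, scaling, probe summary, floor, filter, outlier spots, test, blocks and left-out arrays. Normexp used median signal and background.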

Additional observations from a re-analysis of the deposited data

How the results depend on the processing

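No member had an unadjusted p under 0.05 in limma under any of 22 alternatives or with any array left out. Over the alternatives the adjusted p lay between 0.438 and 0.997 for miR-34a, 0.526 and 0.997 for miR-34b, and 0.387 and 0.997 for miR-34c. Signs turned as follows. With normexp the log2 changes were 0.071 (miR-34a), -0.28 (miR-34b), -0.25 (miR-34c) and 0.34 (difference between the loci), where the median of all miRNAs was -0.45; relative to that median the members were at 0.52, 0.17 and 0.20. With outlying spot backgrounds replaced before normexp the changes were -0.11, 0.06, 0.09 and -0.18, with the signs reported. The cause of the other turns was not tested. miR-34b was -0.012 after quantile normalization, -0.023 with the software's total gene signal, -0.075 with all probes as the scale and -0.13 with the row on the slide as a block, and miR-34c was -0.029 with all probes and -0.0034 with the row. With each array left out in turn the log2 change was -0.20 to -0.037 for miR-34a, -0.0091 to 0.19 for miR-34b, 0.078 to 0.19 for miR-34c and -0.25 to -0.18 for the difference between the loci. Array scaling cancels in that difference by construction, and filters, moderation, array weights, the methods' test and the random block for columns were not run for it.

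The count of miRNAs with an adjusted p under 0.05, 0 as reported, was 2 (miR-132 and miR-221, both higher) with the mean of log2 probes, the brightest probe, a filter for detection on all arrays or on any, outlier spots included, a trended robust eBayes, the methods' test, array weights or columns as a random block, and 0 to 0 with an array left out. The count at an unadjusted p under 0.05, 14 as reported (13 higher, 1 lower), was 0 with normexp, 8 with outlying backgrounds replaced, 1 with all probes (0 higher, 1 lower), 4 without scaling (3 and 1), 8 with total gene signal (3 and 5), 17 after quantile normalization (8 and 9), 11 with arrays centred on the median (9 and 2) and 7 with the row as a block. With an array left out it was 6 to 17, with 7 without loading replicate 1 and 6 without loading replicate 3. Whether equal replicate numbers pair the samples is not given in the labels. The correlations of deviations (-0.69, -0.47 and 0.11 for replicates 1, 2 and 3) cannot settle it. With the replicate number as a block the members kept -0.12, 0.08 and 0.13 and the loci -0.23, with 0 adjusted and 6 unadjusted calls. Precision is limited by 3 arrays a group.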
